A study of Schizosaccharomyces pombe with 36 samples.

Results

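The 8 genes described here handle zinc and copper in fission yeast, *Schizosaccharomyces pombe*: *zrt1*, *zym1*, *zhf1* and *adh4* on the zinc side, and *ctr4*, *ctr5*, *ctr6* and *cuf1* on the copper side. They were taken by gene symbol from a table of 7039 features, 5133 of them protein-coding, and each symbol matched 1 feature. The libraries came from cells labelled *atf21Δ*, in which the gene for the ATF-family transcription factor Atf21 is deleted, and from WT cells. Both strains were grown in yeast extract medium and sampled just before the addition of 1 M sorbitol (0 min), and after 15, 30, 60, 120 and 180 min, with 3 biological replicates per strain and time and 36 libraries in all. Sorbitol, a sugar alcohol, puts the cells under osmotic stress. RNA was measured as strand-specific reads of total RNA depleted of ribosomal RNA.

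Zinc and copper are needed as cofactors and are toxic in excess, so a yeast cell balances uptake at the plasma membrane, storage in organelles, and binding by proteins rich in cysteine. In fission yeast the repressor Loz1 keeps genes such as *zrt1* and *adh4* low when zinc is plentiful. The factor Cuf1 activates the copper transporter genes when copper is scarce, and it represses genes of iron uptake in the same condition.

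Uniquely mapped reads numbered from 9977762 to 19622202 in the *atf21Δ*-labelled libraries and from 7457173 to 20126545 in the WT libraries. Levels are given as scaled RPKM, that is, reads of a feature divided by its length and by the uniquely mapped reads of the library, and then divided by 1 scaling factor per library (0.672 to 1.36). RPKM is corrected for feature length, so levels of different genes are set side by side here. Short features still moved with the replicate number, as given with *zym1* below, so the comparison of the short *zym1* with longer genes is approximate. Each of the 8 genes passed the filter on low values, which 5882 features passed. Reads per library were fewest for *zym1*, from 2 to 954, and most for *ctr4*, from 97 to 3470. In bulk RNA, a change in the number of cells that express a gene and a change in RNA per cell cannot be told apart. The deleted gene was still measured in the libraries labelled *atf21Δ*. At 30 min *atf21* had 18.2, 18.5 and 26.6 scaled RPKM in them, against 30.0, 38.0 and 35.6 in WT libraries, and its time course differed between the strains (limma interaction F-test, adjusted p = 0.000745). These values count reads over the whole 2220-base feature and the sources used here do not give the deleted stretch, so the label could not be checked on that stretch and the libraries are called by their label throughout.

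On the deposited coordinates (PomBase release 11), *zym1* spans chromosome I from 2381690 to 2382200, *zhf1* chromosome I from 2158659 to 2160086, *ctr5* chromosome I from 3635293 to 3636572, *zrt1* chromosome II from 3607199 to 3609330, *ctr6* chromosome II from 2100018 to 2101253 and *ctr4* chromosome III from 818302 to 819361, all on the + strand. On the - strand of chromosome I, *adh4* spans from 156430 to 158279 and *cuf1* from 407714 to 409872. In the RefSeq annotation of the assembly ASM294v3, *ctr6* has 5 coding exons and each of the other genes has 1.

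The coding sequence of *zym1* is shown because this gene had the widest range of levels of the 8 and encodes a metallothionein, a small protein that binds metal ions through cysteines. It lies on chromosome I from 2381730 to 2381882 (ASM294v3, + strand) and has 50 codons before the stop, of which 12, or 24.0%, encode cysteine. Among 5131 RefSeq coding sequences the median share of cysteine codons was 1.36%, and *zym1* was the only one to reach 24.0%. Cysteine codons are in capitals.
zym1: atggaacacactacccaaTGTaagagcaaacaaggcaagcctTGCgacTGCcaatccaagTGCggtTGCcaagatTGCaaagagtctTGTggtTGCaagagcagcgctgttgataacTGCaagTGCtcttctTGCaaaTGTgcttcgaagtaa

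Cuf1 binds a short element called CuSE (copper-signalling element), and matches to it are shown for the copper transporter genes because Cuf1 activates such genes when copper is scarce. A link between the matches and the time courses was not tested. In the 700 bases before the start codon, on both strands, *ctr4* held 2 matches, *ctr5* 4, *ctr6* 1 and *cuf1* 0, and of the zinc genes *zym1* held 1. Among 5145 genes, 51.2% held at least 1 match in such a window, 15.9% at least 2 and 0.739% at least 4, so a single match is common. The stretches below are read 5′ to 3′ on the gene's strand (ASM294v3), with the GCTG core of each match, or its complement CAGC on the other strand, in capitals. The *ctr4* stretch is at chrIII:817855-817877 and starts 604 bases before the start codon, and the *ctr5* pair is at chrI:3635291-3635316, starting 474 bases before it. The other *ctr5* matches are at chrI:3635421-3635432 and chrI:3635539-3635550, and the *ctr6* match is at chrII:2100062-2100073. Counted from the start codon, a window can include transcribed bases. The deposited features start at 3635293 for *ctr5*, 2100018 for *ctr6* and 818302 for *ctr4*. Where both sets of coordinates agree, the single *ctr5* matches and the *ctr6* match lie inside the features. The *ctr5* pair then spans its feature start, and the *ctr4* pair lies before its own.
ctr4 pair: tattgcGCTGtaaaagaGCTGat
ctr5 pair: aattttGCTGagcgattataGCTGgt
ctr5 single, farther: ttCAGCttaatt
ctr5 single, nearer: ccCAGCtcatag
ctr6 single: cgtggtGCTGga
The letters TGACGT, the core of the element that ATF-family factors bind, were searched in the same windows with their complement; the window of *adh4* held 1 match, which overlapped no CuSE match, and those of the other genes held none, where 10.4% of all 5145 genes held at least 1. A match describes the letters in a window, not a bound site.

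Over the time course 6 of the 8 genes changed in the *atf21Δ*-labelled libraries, where 61.7% of all features tested did, and 6 of 8 in the WT libraries, where 51.6% of all features did (limma F-test over the 5 times against 0 min, Benjamini-Hochberg adjusted p under 0.05). The 6 genes were the same in both strains, namely *zym1*, *zhf1*, *adh4*, *ctr4*, *ctr5* and *cuf1*, while *zrt1* and *ctr6* did not pass. *zym1* was the 1 gene called higher at any time. At 15 min 1 gene was called higher and 4 lower in the *atf21Δ*-labelled libraries (15.6% of all features higher, 12.3% lower), and 0 higher and 4 lower in WT (12.5% higher, 10.9% lower). At 30 min 1 was higher and 4 lower in each strain, with 20.0% of all features higher and 18.3% lower in the *atf21Δ*-labelled libraries and 15.6% higher and 13.0% lower in WT. The same counts held at 60 min, where 9.55% of all features were higher and 9.88% lower in the *atf21Δ*-labelled libraries, and 7.31% and 7.79% in WT. By 120 min 1 gene was higher and 2 lower in the *atf21Δ*-labelled libraries (5.10% and 4.42% of all features) and 0 higher and 1 lower in WT (3.33% and 2.31%). At 180 min the *atf21Δ*-labelled libraries had 1 gene higher and 1 lower (5.24% and 3.42% of all features), and WT had 0 higher and 1 lower (2.74% and 2.23%). The median log2 change of the 8 genes at 30 min was -0.31 in the *atf21Δ*-labelled libraries and -0.56 in WT, beside medians over all features of -0.01 and -0.01.

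**Figure D1:**
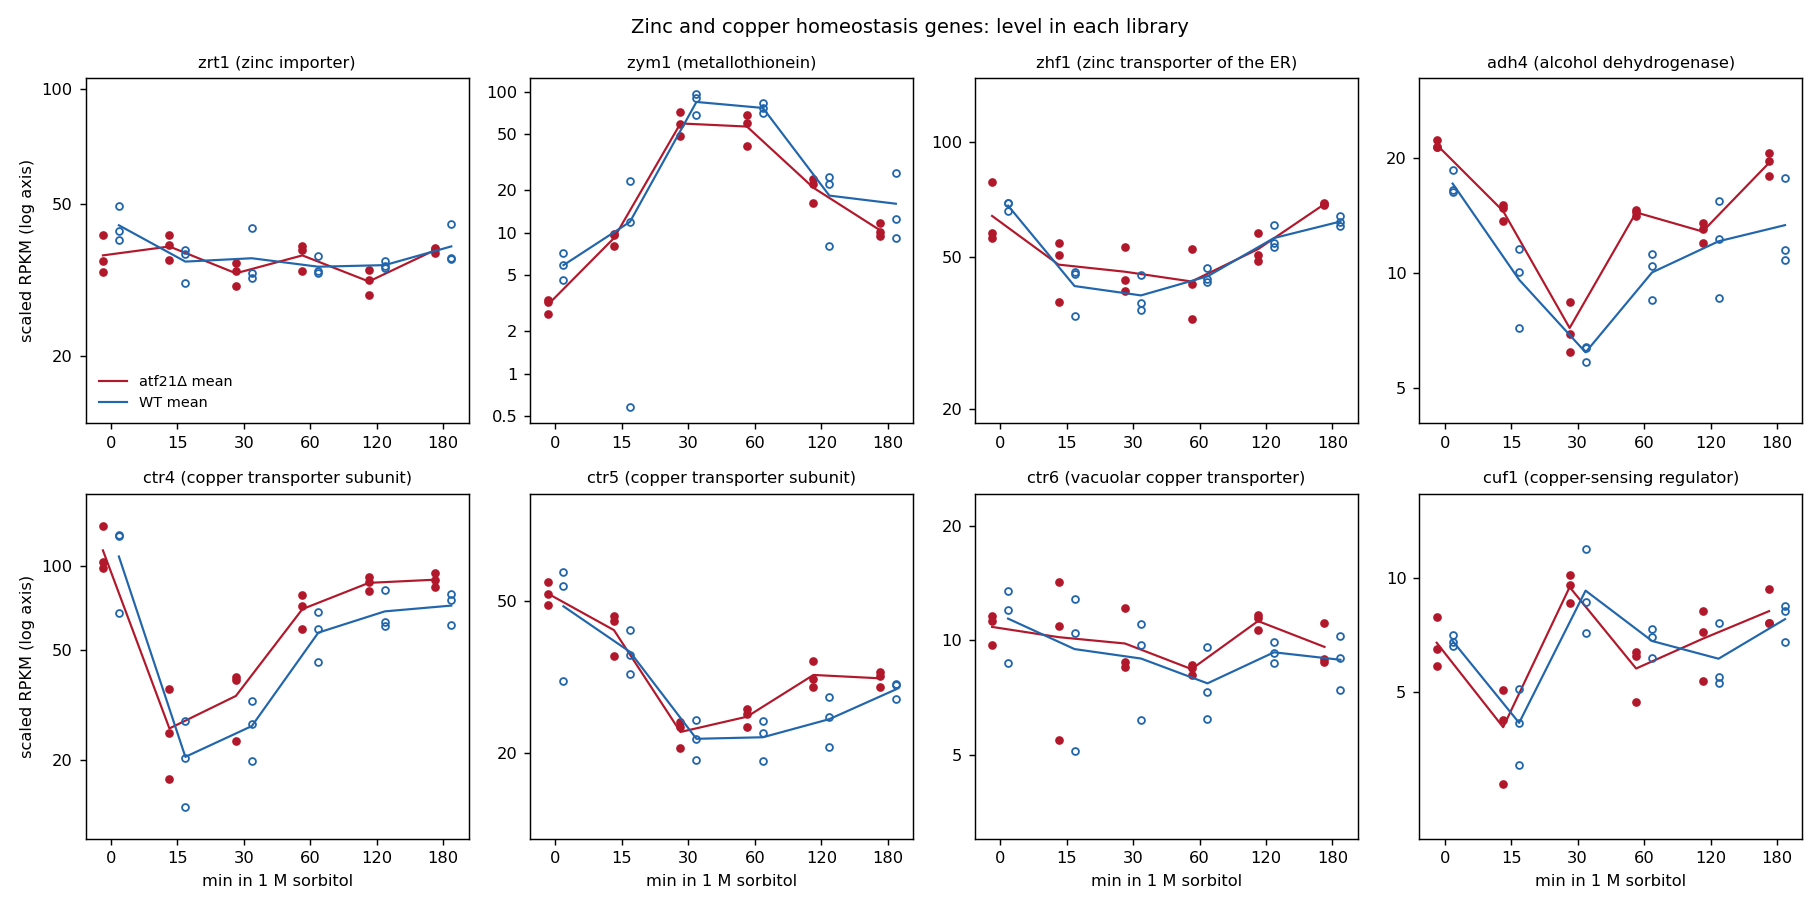
Scaled RPKM (log axis, with its own range in each panel) of the 8 genes by time in 1 M sorbitol. Each point is a library, filled for atf21Δ and open for WT, and lines join the means of 3 libraries. zym1 rises to 48.6 to 72.0 at 30 min in atf21Δ and 68.4 to 96.1 in WT, ctr4 is lowest at 15 min, and adh4 is lowest at 30 min.

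Before the stress *ctr4* RNA was the most abundant of the 8 and *zym1* RNA the least. At 0 min the *atf21Δ*-labelled libraries had mean scaled RPKM of 114 for *ctr4*, 64.2 for *zhf1*, 52.3 for *ctr5*, 36.6 for *zrt1*, 21.7 for *adh4*, 10.8 for *ctr6*, 6.75 for *cuf1* and 3.07 for *zym1*, and the libraries of neighbouring genes in this order did not overlap. WT libraries had the same order, with means of 109, 68.3, 48.4, 43.9, 17.2, 11.4, 6.82 and 5.90, but there *ctr4* overlapped *zhf1*, *ctr5* overlapped *zrt1*, and *cuf1* overlapped *zym1*. At 30 min the order was different. *zym1* then had the highest mean, 59.9 in the *atf21Δ*-labelled libraries and 85.1 in WT, and *adh4* the lowest, 7.18 and 6.20. *zym1* overlapped *zhf1*, the next below it, in the *atf21Δ*-labelled libraries and stood apart from it in WT.

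Among the zinc genes, *zrt1* encodes the zinc uptake transporter of the plasma membrane. Its levels stayed within a narrow band, with 28.8 to 41.4 scaled RPKM from 15 to 180 min in the *atf21Δ*-labelled libraries, against 33.0 to 41.4 at 0 min, and 30.9 to 44.1 in WT, against 40.1 to 49.2 at 0 min. The F-test did not pass in either strain (adjusted p = 0.0651 in the *atf21Δ*-labelled libraries and 0.145 in WT, limma). In WT the mean log2 change was lowest at 60 min (-0.35, SE 0.13, adjusted p = 0.0724), and the libraries of 15, 60 and 120 min were all below those of 0 min. This gene sat near the threshold. Without WT 30 min replicate 2 the F-test passed in WT (adjusted p = 0.0461), as did 30, 60 and 120 min (adjusted p of 0.0264, 0.0405 and 0.0493). The F-test of the *atf21Δ*-labelled libraries passed without 0 min replicate 3 (0.0459), without 15 min replicate 3 (0.0476) or without 60 min replicate 1 (0.0496). With quantile normalization it passed in both strains (0.0337 in the *atf21Δ*-labelled libraries and 0.0201 in WT), and with 1 fit of all libraries in WT (0.0493). Without scaling, the adjusted p of the F-test in WT was 0.00544, and the median of all features then shifted by up to -0.46 at 15 min.

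*zym1*, the metallothionein gene, rose in both strains and was the gene with the largest change. In the *atf21Δ*-labelled libraries it had 3.22, 2.63 and 3.35 scaled RPKM at 0 min, 9.85, 8.13 and 9.59 at 15 min, 59.1, 48.6 and 72.0 at 30 min, 41.4, 59.9 and 69.3 at 60 min, 22.2, 24.3 and 16.3 at 120 min, and 9.45, 11.7 and 10.2 at 180 min. WT libraries had 7.14, 5.94 and 4.61 at 0 min, 23.4, 11.9 and 0.579 at 15 min, 68.4, 96.1 and 90.7 at 30 min, 70.7, 83.9 and 76.8 at 60 min, 25.0, 8.10 and 22.1 at 120 min, and 9.13, 26.7 and 12.5 at 180 min. The libraries of 30 and 60 min lay above every library of 0 min in both strains, and RNA was still above the starting libraries at 180 min. The ratio of the 30 min mean to the 0 min mean was 19.5 in the *atf21Δ*-labelled libraries and 14.4 in WT. On the log2 scale with 0.5 added, the change at 30 min was 4.07 (SE 0.18, adjusted p = 2.28e-11) and 3.75 (SE 0.76, adjusted p = 0.00251) by limma. The *atf21Δ*-labelled libraries passed at each of the 5 times, with log2 changes of 1.44 (15 min), 3.98 (60 min), 2.57 (120 min) and 1.62 (180 min). With 1 fit of all libraries the calls at 15 and 180 min were lost (adjusted p of 0.0939 and 0.0553). In WT the test passed at 30 and 60 min (3.62 at 60 min) and not at 15, 120 or 180 min.

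WT 15 min replicate 3, with 2 *zym1* reads, stood apart from the other libraries of its group. Without it the WT changes at 15, 120 and 180 min were 1.45, 1.43 and 1.25, and each passed (limma, adjusted p of 0.0319, 0.0188 and 0.0374). In that library 8 features were more than 10-fold below both other WT 15 min libraries after adding 0.5, against 0 or 1 in each other library. All 8 were short, from 73 to 555 bases, where the median feature tested had 1764 bases, and *zym1* with 511 bases was among them. Another of the 8, *mfm2*, was not low in that library alone. It had 0 to 2.18 scaled RPKM in the WT replicate 3 libraries of all times, against 5.08 to 19.9 in replicates 1 and 2. Over the 524 features of at most 600 bases, a limit chosen after these values were seen, the median log2 change from 0 min at 30 min was 0.32 in the *atf21Δ*-labelled libraries and 0.24 in WT, against -0.04 and -0.03 for longer features. Short features also moved with the replicate number. Set against the mean of its group, the median of the short features lay below that of the longer ones in 12 of 12 replicate 3 libraries, by log2 differences from -0.37 to -0.05, and above it in 11 of 12 replicate 1 libraries (-0.03 to 0.37). *zym1* itself lay below its group mean in 6 of 12 replicate 3 libraries and in 6 of 12 replicate 1 libraries. The part of feature length and of replicate number in the *zym1* values was not tested.

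*zhf1*, which encodes a zinc transporter of the endoplasmic reticulum, was modestly lower during the first hour in both strains. The *atf21Δ*-labelled libraries had 57.8, 56.3 and 78.6 scaled RPKM at 0 min, 38.1, 50.8 and 54.7 at 15 min, 43.5, 40.9 and 53.1 at 30 min and 42.5, 34.4 and 52.7 at 60 min, and WT libraries had 66.0, 69.4 and 69.6 at 0 min, 35.2, 45.8 and 45.3 at 15 min, 36.3, 45.1 and 37.9 at 30 min and 43.8, 46.9 and 43.1 at 60 min. Every library of these 3 later times lay below every library of 0 min of its strain. At 180 min the means were 69.0 ± 0.482 in the *atf21Δ*-labelled libraries and 62.1 ± 1.89 in WT (SD, n = 3 each), near the means at 0 min. The log2 change at 30 min was -0.47 (SE 0.16, limma adjusted p = 0.0475) in the *atf21Δ*-labelled libraries and -0.78 (SE 0.11, adjusted p = 6.93e-05) in WT. *zhf1* passed at 15, 30 and 60 min in WT and at 30 and 60 min in the *atf21Δ*-labelled libraries. The call at 30 min in the *atf21Δ*-labelled libraries was lost when any of 12 libraries was left out (0 min replicates 1 and 3, 15 min replicate 2, 30 min replicates 1 and 2, 60 min replicate 1, and each library of 120 and 180 min), with adjusted p from 0.0544 to 0.221. That call was also lost with no filter (0.0836) or no trend (0.0682), and the call at 60 min without scaling (0.0557). The call at 60 min was lost there without 0 min replicate 3 or 60 min replicate 2 (0.103 and 0.0928), a call at 15 min was gained without 15 min replicate 3 (0.0464), and WT gained 120 min without 15 min replicate 1 (0.0449).

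*adh4*, an alcohol dehydrogenase gene that zinc shortage induces, fell to its lowest level at 30 min. The *atf21Δ*-labelled libraries had 21.4, 22.4 and 21.3 scaled RPKM at 0 min, 15.1, 13.7 and 14.8 at 15 min, 6.93, 6.21 and 8.40 at 30 min, 14.7, 14.1 and 14.5 at 60 min, 13.5, 12.005 and 13.05 at 120 min, and 20.7, 17.98 and 19.7 at 180 min. WT libraries had 16.5, 18.6 and 16.3 at 0 min, 11.6, 10.1 and 7.19 at 15 min, 5.85, 6.36 and 6.39 at 30 min, 8.48, 11.2 and 10.4 at 60 min, 8.58, 15.5 and 12.3 at 120 min, and 10.8, 11.5 and 17.7 at 180 min. From 15 to 120 min every library lay below the libraries of 0 min in both strains. The mean at 30 min was 3.02-fold lower than at 0 min in the *atf21Δ*-labelled libraries and 2.77-fold lower in WT. By limma the log2 change was -1.54 (SE 0.10, adjusted p = 3.06e-09) and -1.40 (SE 0.21, adjusted p = 0.000197). *adh4* passed at 15, 30, 60 and 120 min in the *atf21Δ*-labelled libraries and at 15, 30 and 60 min in WT. The WT call at 15 min was lost without 0 min replicate 2 or 15 min replicate 3 (adjusted p of 0.0588 and 0.0559), and that at 60 min without any library of 0 min or 60 min replicate 1 (0.0504 to 0.0919). Without WT 120 min replicate 2, 120 min passed (0.0439).

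On the copper side, *ctr4* and *ctr5* encode the subunits of the copper uptake complex of the plasma membrane, which needs both proteins. *ctr4* RNA was lowest at 15 min. It had 99.0, 103 and 140 scaled RPKM at 0 min in the *atf21Δ*-labelled libraries, 17.1, 35.996 and 25.0 at 15 min, 39.9, 23.4 and 39.0 at 30 min, 79.0, 59.5 and 71.8 at 60 min, 88.0, 81.7 and 91.9 at 120 min, and 94.9, 84.5 and 89.3 at 180 min. WT libraries had 129, 128 and 68.0 at 0 min, 20.3, 27.8 and 13.5 at 15 min, 27.1, 19.8 and 32.8 at 30 min, 68.6, 45.1 and 59.4 at 60 min, 82.5, 60.9 and 63.1 at 120 min, and 75.5, 79.6 and 61.5 at 180 min. At 15 and 30 min all libraries were below the lowest library of 0 min in both strains, and from 60 min on the WT libraries overlapped those of 0 min. The mean at 15 min was 4.39-fold lower than at 0 min in the *atf21Δ*-labelled libraries and 5.28-fold lower in WT, with log2 changes of -2.16 (SE 0.22, limma adjusted p = 1.28e-06) and -2.37 (SE 0.27, adjusted p = 9.87e-06). At 30 min the log2 changes were -1.75 and -1.98, at 60 min -0.69 and -0.87, and those of 120 and 180 min did not pass in either strain.

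*ctr5* RNA fell later and stayed down. The *atf21Δ*-labelled libraries had 48.9, 52.0 and 56.0 scaled RPKM at 0 min, 35.7, 44.3 and 45.7 at 15 min, 20.6, 23.4 and 24.0 at 30 min, 26.0, 25.2 and 23.4 at 60 min, 31.2, 34.9 and 29.8 at 120 min, and 31.8, 29.7 and 32.5 at 180 min. WT libraries had 59.6, 54.7 and 30.8 at 0 min, 32.1, 36.1 and 42.1 at 15 min, 21.7, 19.2 and 24.4 at 30 min, 24.3, 19.0 and 22.6 at 60 min, 28.0, 20.7 and 24.8 at 120 min, and 30.2, 30.0 and 27.7 at 180 min. From 30 min on, every library of both strains lay below the libraries of 0 min. By limma, the log2 change was -1.19 (SE 0.10, adjusted p = 1.18e-07) at 30 min in the *atf21Δ*-labelled libraries and -1.09 (SE 0.20, adjusted p = 0.00091) in WT, and at 180 min it was still -0.73 (adjusted p = 4.17e-05) and -0.66 (adjusted p = 0.0299). At 15 min the change was -0.32 in the *atf21Δ*-labelled libraries, which passed (adjusted p = 0.0312), and -0.34 in WT, which did not.

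WT 0 min replicate 3 was low for both subunit genes, with 68.0 for *ctr4* and 30.8 for *ctr5*. Without it the WT log2 changes at 15 min were -2.68 for *ctr4* and -0.64 for *ctr5*, *ctr5* then passed at 15 min (limma, adjusted p = 0.0118) and *ctr4* at 120 min (-0.91, adjusted p = 0.0334). The *ctr4* calls at 60 min were lost in the *atf21Δ*-labelled libraries without 0 min replicate 2 or 3 or 60 min replicate 2 or 3 (adjusted p from 0.0566 to 0.151), and in WT without 0 min replicate 1 or 2 or 60 min replicate 2 or 3 (0.0718 to 0.163). Both calls were also lost with no filter (0.0748 and 0.0777) or no trend (0.0523 and 0.0564), the first with 1 fit of all libraries (0.0681) and the WT call without scaling (0.0526). The *ctr5* call at 15 min in the *atf21Δ*-labelled libraries was lost without 0 min replicate 2 or 3 or 15 min replicate 1 (0.0774 to 0.158), without the last of which the change was -0.21, and with 1 fit of all libraries (0.182). The WT call at 180 min was lost without 0 min replicate 1 or 2 or any library of 180 min (0.0549 to 0.148), and with no filter (0.0541).

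Because both subunit genes are read in the same libraries, their ratio does not depend on the scaling. The RPKM of *ctr4* over that of *ctr5* in the *atf21Δ*-labelled libraries was 2.03, 1.99 and 2.50 at 0 min, 0.479, 0.812 and 0.547 at 15 min, 1.94, 1.00 and 1.62 at 30 min, 3.04, 2.36 and 3.08 at 60 min, 2.82, 2.34 and 3.08 at 120 min, and 2.99, 2.84 and 2.75 at 180 min. In WT it was 2.17, 2.34 and 2.21 at 0 min, 0.634, 0.769 and 0.322 at 15 min, 1.25, 1.03 and 1.34 at 30 min, 2.82, 2.37 and 2.63 at 60 min, 2.95, 2.94 and 2.54 at 120 min, and 2.50, 2.65 and 2.22 at 180 min. Every library of 15 min had less *ctr4* than *ctr5* RNA per length, and every library of the other times had more. At 30 min the log2 ratio, with 0.5 added to both RPKM, was lower than at 0 min by a difference of -0.56 in the *atf21Δ*-labelled libraries and -0.90 in WT, and at 15 min, a time added after the values were seen, by -1.83 and -2.02. Each of these 4 differences had an exact two-sided permutation p = 0.10, the smallest that 3 libraries against 3 can give, so none could pass 0.05. Without 30 min replicate 2, whose ratio was the lowest of its group, the difference at 30 min in the *atf21Δ*-labelled libraries was -0.29. Later the ratio was above that of 0 min in each strain on average, with log2 differences at 120 min of 0.33 in the *atf21Δ*-labelled libraries (exact p = 0.20) and 0.31 in WT (exact p = 0.10).

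**Figure D2:**
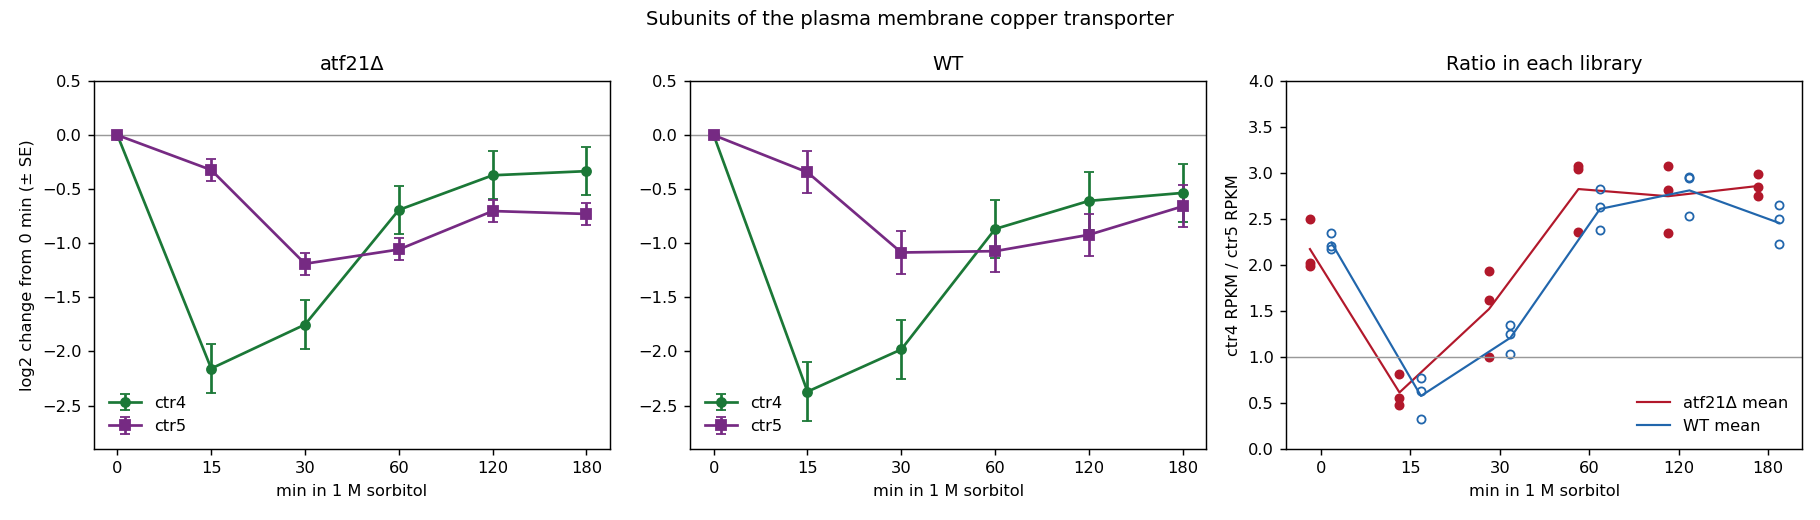
Left and middle, log2 change from 0 min (± SE, n = 3 libraries per time) of ctr4 (circles) and ctr5 (squares) in atf21Δ and in WT. Right, RPKM of ctr4 over RPKM of ctr5 in each library (filled, atf21Δ; open, WT) with lines through the means. At 15 min the ratio lies between 0.479 and 0.812 in atf21Δ and between 0.322 and 0.769 in WT, all below 1, and it is above 2 in all libraries but 1 at 0 min.

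*ctr6*, which encodes a copper transporter of the vacuolar membrane, did not pass in either strain (limma F-test, adjusted p = 0.604 in the *atf21Δ*-labelled libraries and 0.631 in WT). It had 5.49 to 14.2 scaled RPKM at 15 min in the *atf21Δ*-labelled libraries, against 9.70 to 11.6 at 0 min, and 5.15 to 12.8 in WT, against 8.70 to 13.5 at 0 min. The lowest mean was at 60 min in both strains, with log2 changes of -0.35 (SE 0.22, adjusted p = 0.321) and -0.53 (SE 0.28, adjusted p = 0.24).

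*cuf1*, the gene of the copper-sensing factor itself, was lower at 15 min. It had 2.87, 5.07 and 4.22 scaled RPKM at 15 min in the *atf21Δ*-labelled libraries, against 5.87, 7.89 and 6.49 at 0 min, and 5.11, 4.16 and 3.22 in WT, against 6.60, 7.08 and 6.78 at 0 min. At 30 min it had 9.57, 8.58 and 10.2 in the *atf21Δ*-labelled libraries and 11.9, 8.65 and 7.16 in WT, above every library of 0 min of the same strain. The log2 change at 15 min was -0.69 (SE 0.19, limma adjusted p = 0.0127) and -0.67 (SE 0.19, adjusted p = 0.0238), while the positive changes at 30 min, 0.46 and 0.38, did not pass (adjusted p of 0.0922 and 0.217). From 60 min on the libraries overlapped those of 0 min. The call at 15 min was lost in the *atf21Δ*-labelled libraries without 0 min replicate 2 or 15 min replicate 1 (0.0704 and 0.07), and in WT without any library of 0 min or 15 min replicate 3 (0.0509 to 0.0845). The WT call was also lost with quantile normalization, where the change was -0.47 (0.13), and with voom on the recovered reads (0.0675).

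The strain comparison asked whether these genes differed between the libraries labelled *atf21Δ* and those labelled WT. None of the 8 passed the strain-by-time interaction test of limma after adjustment (smallest unadjusted p = 0.144, adjusted p of 1.00 for each), where 0.0340% of all features passed. Of the 48 differences between the *atf21Δ*-labelled and WT libraries at single times, 0 passed after adjustment, where 0.0227% of all feature and time combinations passed. By voom on the recovered reads the counts after adjustment were also 0 and 0. At an unadjusted p under 0.05 there were 0 interactions and 5 single-time differences by limma, and 0 and 6 by voom. The share of all features at that unadjusted threshold was not counted, so these counts have no background to be read against. In 11 of the 48 the libraries of the strains did not overlap, 8 with *atf21Δ* higher and 3 with it lower, against 9.48% of all feature and time combinations. *adh4* made up 4 of these 11. It was higher on average in the *atf21Δ*-labelled libraries at all 6 times, most at 15 min with 15.1, 13.7 and 14.8 scaled RPKM against 11.6, 10.1 and 7.19 in WT. That log2 difference was 0.60 (SE 0.17, 95% interval from 0.25 to 0.94, adjusted p = 0.265). Differences of 0.51 at 60 min and 0.56 at 180 min had adjusted p of 0.449 and 0.336. Over the 7 genes other than *zym1* the 95% intervals of the differences ran from -0.62 to 0.94, so changes beyond that range lay outside each interval. For *zym1* they ran from -2.03 to 1.70. Its SE, 0.59 at each of the 6 times, pools the spread of all groups, including WT 15 min replicate 3 with 2 *zym1* reads. The 3 non-overlapping differences with *atf21Δ* lower were *zym1* at 0 and 60 min and *zrt1* at 120 min. *zym1* averaged 3.07 scaled RPKM against 5.90 in WT at 0 min (log2 difference -0.83), and 56.9 against 77.1 at 60 min (-0.46).

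**Figure D3:**
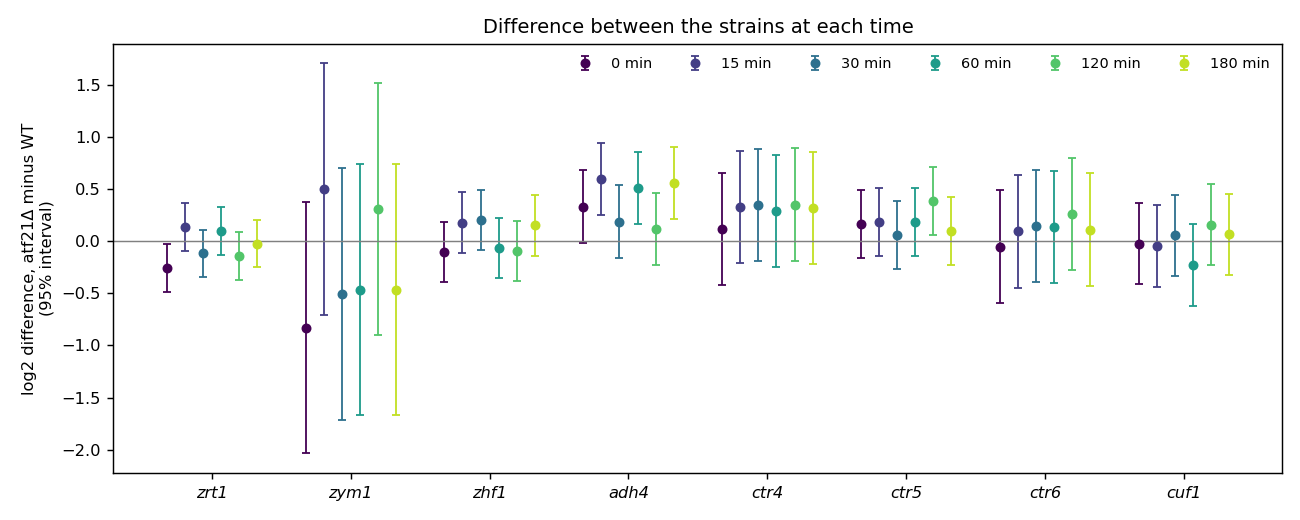
Difference in log2 scaled RPKM, atf21Δ minus WT, for the 8 genes at the 6 times (colours), with 95% intervals from limma (n = 3 libraries per strain and time). The adh4 intervals at 15, 60 and 180 min lie above 0 before adjustment, with differences of 0.60, 0.51 and 0.56, and the zym1 intervals are the widest.

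Features next to the 8 genes were read on their own strand. Features on the opposite strand overlapped 2 of the genes. *zrt1* overlapped *sir2*, which had 2.68 to 5.71 scaled RPKM, and SPNCRNA.1622, which had 0.249 to 1.61. *ctr5* overlapped SPNCRNA.923, which had 0 to 1.33 and did not pass the filter. On the same strand the nearest feature was 112 bases from *ctr5* (*get3*, 31.1 to 52.4 scaled RPKM) and 184 bases from *ctr6* (SPBC18E5.13, 5.89 to 14.3), so reads past an annotated end were not told apart from reads of the gene.

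Other genes of zinc handling were taken from a list of 5, to which 2 genes described in RefSeq as zinc transporters were added, and all 7 were tested. At 15 min 4 of the 7 were lower in each strain, where 12.3% of all features were lower in the *atf21Δ*-labelled libraries and 10.9% in WT, and 0 were higher (15.6% and 12.5% of all features). The median log2 change of the 7 at that time was -0.78 and -0.83. At 30 min 3 were higher in the *atf21Δ*-labelled libraries (20.0% of all features) and 0 in WT (15.6%), with 0 lower in either (18.3% and 13.0% of all features). The 3 with the largest changes were *fet4*, a low affinity transporter of iron and zinc, *cis4*, a zinc transporter of the cation diffusion facilitator family, and *zip2*, which RefSeq describes as a zinc transporter. *fet4* had 0.90, 0.862 and 0.889 scaled RPKM at 15 min in the *atf21Δ*-labelled libraries, against 1.57, 2.02 and 2.08 at 0 min, and 0.221, 0.664 and 0.65 in WT, against 2.11, 1.98 and 2.50 at 0 min. At 15 min *cis4* averaged 7.38 ± 0.535 scaled RPKM in the *atf21Δ*-labelled libraries, against 13.8 ± 2.13 at 0 min, and 6.32 ± 0.749 in WT, against 14.6 ± 1.59 at 0 min (SD, n = 3 each). *zip2* had log2 changes of -0.85 and -0.83 at 15 min in the *atf21Δ*-labelled libraries and in WT (limma adjusted p of 7.20e-05 and 0.00467). *loz1*, the gene of the zinc-responsive repressor, named here after its values were seen, passed the F-test in the *atf21Δ*-labelled libraries and not in WT, with log2 changes at 30 min of 0.55 and 0.69.

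Of 14 further copper genes listed, 13 were matched to 14 features, of which 12 were tested; *cox23* had no match and *cuf2* and *mfc1*, known from meiosis, were too low, with at most 7 and 25 reads. At 30 min 3 of the 12 were higher and 1 lower in the *atf21Δ*-labelled libraries, and 2 higher and 1 lower in WT, where 20.0% of all features were higher and 18.3% lower in the *atf21Δ*-labelled libraries and 15.6% and 13.0% in WT. The counts of higher genes were within 1 gene of the number these shares give. The largest fall belonged to *fio1*, a multicopper oxidase of iron uptake, which had 7.71, 7.35 and 10.5 scaled RPKM at 30 min in the *atf21Δ*-labelled libraries, against 59.8, 62.0 and 103 at 0 min, and 6.51, 10.2 and 11.025 in WT, against 66.4, 106 and 123 at 0 min. Its log2 changes at 30 min were -3.03 (SE 0.23, limma adjusted p = 3.05e-08) and -3.33 (SE 0.43, adjusted p = 3.29e-05). *sod1*, the superoxide dismutase that holds copper and zinc, rose at 30 min by log2 changes of 1.17 (adjusted p = 5.06e-05) and 0.93 (adjusted p = 0.00133). *cao2*, of the copper amine oxidase family, rose at 60 min by 1.57 (adjusted p = 0.000852) and 1.98 (adjusted p = 0.00115), at levels of 1.33 to 3.40 scaled RPKM in the *atf21Δ*-labelled libraries and 2.25 to 6.29 in WT.

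The 6 genes listed for metal detoxification by thiol peptides were all tested, and at 30 min 2 were higher and 1 lower in the *atf21Δ*-labelled libraries (20.0% and 18.3% of all features) and 1 higher and 0 lower in WT (15.6% and 13.0%), each count within 1 gene of the number these shares give. *hmt2*, a sulfide quinone oxidoreductase, had the largest change, with log2 changes at 30 min of 0.91 (limma adjusted p = 1.43e-05) and 0.85 (adjusted p = 1.18e-06). *pcs2*, for phytochelatin synthase, had -0.40 (adjusted p = 0.00551) in the *atf21Δ*-labelled libraries and -0.43 (adjusted p = 0.0627) in WT at that time. *abc2*, a vacuolar transporter, had 0.33 (adjusted p = 0.00843) and 0.04 (adjusted p = 0.85). None of the genes named from the 3 lists changed as much as *zym1*.

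**Figure D4:**
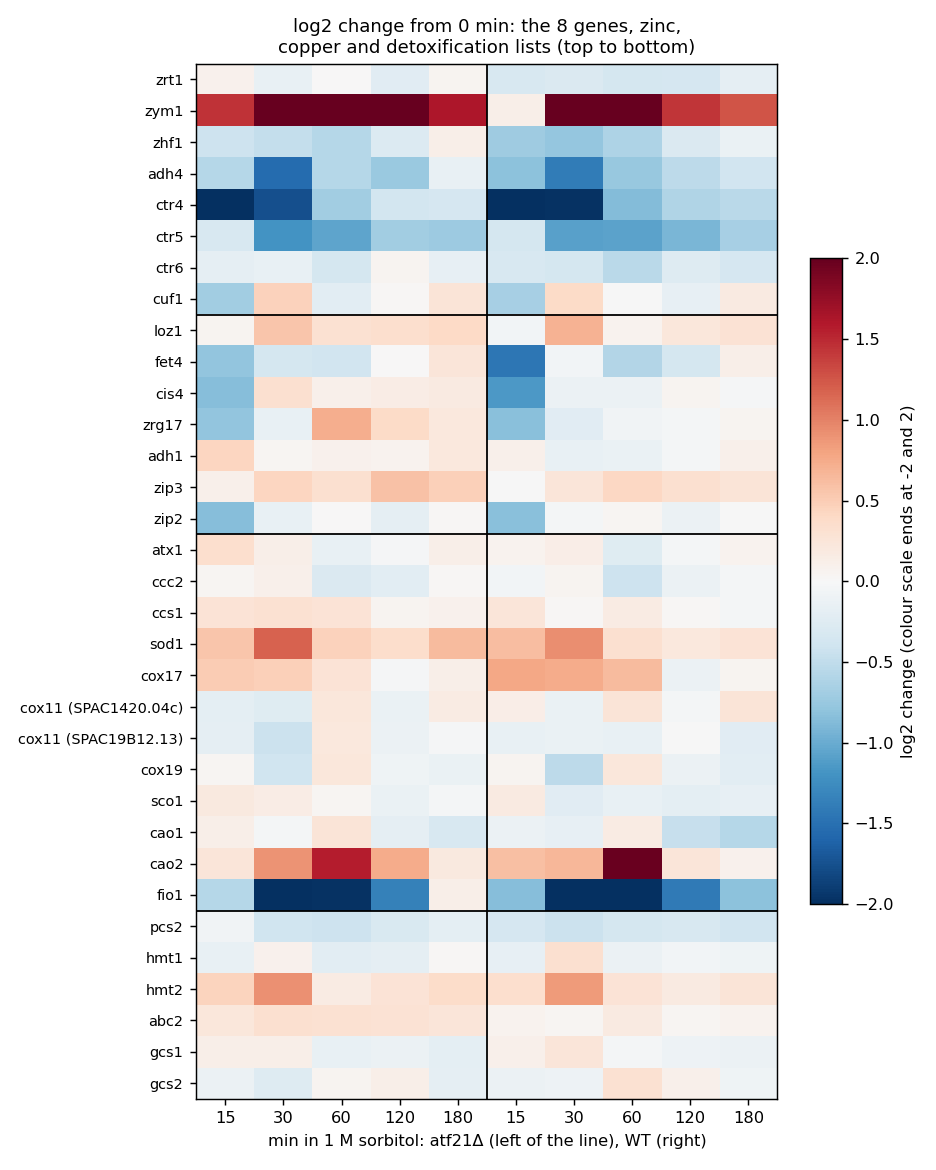
Mean log2 change from 0 min (colour, with the scale ending at -2 and 2) for the 8 genes and for the tested genes of the zinc, copper and detoxification lists, top to bottom, by time in atf21Δ (left of the line) and WT (right). zym1 is the strongest red band and fio1, at -3.03 and -3.33 at 30 min, the strongest blue one.

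Across the 12 means of strain and time, the 8 genes did not follow a single pattern. Pearson's r of log2 levels was 0.27 for *ctr4* with *ctr5*, 0.78 for *ctr4* with *zhf1*, 0.72 for *ctr4* with *adh4* and -0.92 for *zym1* with *ctr5*. These r are descriptions, since each point is the mean of 3 libraries and the genes of a pair are read in the same libraries. The protein-coding genes most like *zym1* were *eno102*, an enolase gene (r = 0.97), SPAC2E1P3.01, a dehydrogenase gene (0.97), and SPAPB1E7.08c, a transporter gene (0.97), with log2 changes at 30 min of 2.82, 2.12 and 1.19 in the *atf21Δ*-labelled libraries and 3.39, 1.99 and 1.31 in WT. Those most like *ctr4* were SPCC1494.07, annotated for tRNA methylation (0.98), SPAC23H4.04, annotated as a tRNA methyltransferase (0.97), and SPBC16G5.17, a transcription factor gene (0.97). For *ctr5* they were *nic1*, a metal ion transporter of the plasma membrane (0.94), *rrg1* (0.93) and *dea2*, an adenine deaminase gene (0.93). *zhf1* was most like SPBC887.08 (0.96), SPBC36.03c (0.94) and *frp1*, a ferric reductase gene (0.94). *adh4* was most like SPBC18H10.07 (0.96), *pex6* (0.95) and SPAC4C5.01 (0.94), and *cuf1* like *tlg2* (0.96), *prz1* (0.95) and *nak1* (0.95). The nearest genes to *zrt1* (SPCC297.05, *erg31* and SPCC1259.02c) and to *ctr6* (*swd1*, SPCC613.01 and SPAC23H3.14) reached r from 0.79 to 0.82 and from 0.82 to 0.92.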

How the data were processed

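The authors aligned single-end SOLiD reads with SHRiMP2 (default parameters) to PomBase release 11, discarded multiply aligned reads, counted the rest by strand and deposited RPKM, one column for each library. All 253404 deposited values were whole multiples of 1 read (100.0%, within 0.01 of a read). Paralogs count their unique sequence alone.

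Libraries were scaled by a TMM factor without weights (trims of 30% for log ratios and 5% for levels), then 0.5 was added to the RPKM and log2 taken, so fold changes of low genes are understated. limma 3.58.1 in R 4.3.3 tested 5882 features, those reaching an RPKM of 1 in over 6 libraries, with a fit of each strain and time as a factor, and a fit of all 36 libraries for strain differences. Adjusted p-values are Benjamini-Hochberg over all features (and times, for single times). Scipy 1.17.1 gave exact permutation tests. Reads were also simulated for change over time in WT (5882 features), with changes put at 30 min alone, in 200 features per draw. There the F-test recovered 93.1% of 2-fold and 99.4% of 4-fold changes, and 4.90% of its calls were false. The simulation gave all features the same dispersion (0.0169), set scaling factors to 1, and had no effect of replicate number and no outlying library. These shares therefore describe that setting and may not hold for the data. Since the values are RPKM, no count model was used, except voom on the recovered reads as an alternative.

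The 8 genes are the listed members, and the zinc, copper and detoxification lists give counts and the 3 largest changes. Members and lists were chosen with earlier results of these data known. The alternatives changed the pseudocount (0.1 or 1), the scaling (none, or quantile), the filter (none, or RPKM of 5), the trend (none), the tool (voom) and the design (replicate block, or 1 fit of all libraries), or left out each library in turn. Ratios at times other than 30 min and the 700-base windows were added after the data were seen. Sequences were read from RefSeq ASM294v3 on its own coordinates. The limma p-values set a difference against the spread between replicates, pooled over all groups of a fit and moderated across features. A library that stands apart at a single time therefore also affects the p-values of other times. Read counts cover counting error only.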

Additional observations from a re-analysis of the deposited data

How the results depend on the processing

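The number of the 8 genes that changed over time was 6 in the libraries labelled *atf21Δ* and 6 in WT, and 6 to 7 in each strain under the 10 alternatives and when single libraries were left out, the seventh gene being *zrt1* each time. In the main fit 61.7% and 51.6% of all features tested changed over time. Calls at single times numbered 20 in the *atf21Δ*-labelled libraries (17 to 21 under the alternatives, 16 to 21 without single libraries) and 16 in WT (14 to 20, and 11 to 19). Over all features tested they numbered 6104 in the *atf21Δ*-labelled libraries (5304 to 7844, and 4521 to 6230). In WT they numbered 4568 (4309 to 5608, and 3112 to 4971). The filter settings tested 7039 or 4678 features instead of 5882. Interaction and strain-difference calls stayed at 0 under all of them, where 1 to 36 and 4 to 188 were made over all features. No called value reversed its direction under any of them. The difference in the log2 ratio of *ctr4* to *ctr5* at 30 min ranged from -0.76 to -0.29 in the *atf21Δ*-labelled libraries and from -0.98 to -0.79 in WT without single libraries (exact p = 0.20, the smallest possible then).

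With the replicate block, which takes replicate number as a factor, 21 and 18 single-time calls were made, 6 genes changed in each strain, and no call was lost. Over all 5882 features the block gave 7844 and 5474 single-time calls, against 6104 and 4568 in the main fit. By the F-test 4135 and 3415 features then changed over time, against 3631 and 3038. The calls gained were *zrt1* at 60 min in WT (limma, adjusted p = 0.0492), *zhf1* at 15 min in the *atf21Δ*-labelled libraries (0.0127) and *zhf1* at 120 min in WT (0.0362). The ratio differences were -0.56 and -0.90 (exact p = 0.25 for each, the smallest that libraries paired by number can give, so neither could pass 0.05). Same-numbered libraries of a strain deviated together in 60 of 90 pairs (r over 0.1, range from -0.23 to 0.50, median 0.17, against a median of -0.08 for different numbers), not in all, so the numbers were not taken to pair samples. As a hint from the data, 28 of 36 libraries correlated best on average with their own number, 17 of 18 labelled *atf21Δ* and 11 of 18 WT. Without scaling, the median of all features shifted by -0.43 at 15 min in the *atf21Δ*-labelled libraries and -0.46 in WT. The changes whose sign turned without scaling were not called: *zrt1* at 15, 60 and 180 min, *zhf1* at 180 min, *ctr6* and *cuf1* at 120 min in the *atf21Δ*-labelled libraries, and *zym1* at 15 min and *cuf1* at 60 min in WT. Other settings also gained calls. Quantile normalization gave calls for *zrt1* at 15, 30 and 60 min in WT (adjusted p of 0.00631, 0.0278 and 0.0408), and 1 fit of all libraries at 15, 60 and 120 min (0.0481, 0.0243 and 0.0315), as well as for *adh4* at 120 min in WT (0.0281). Without scaling, *zrt1* passed at 15 and 30 min (0.00164 and 0.00764) and *ctr5* at 15 min (0.00817) in WT. *zhf1* at 15 min in the *atf21Δ*-labelled libraries passed without scaling (0.00569), with quantile normalization (0.00481) and with 1 fit (0.0365), and *cuf1* at 30 min there with voom (0.0477). The cause of these gained calls was not tested.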
